A study of Mus musculus with 27 samples.

Results

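The 10 mouse genes described here encode corepressors and DNA methyltransferases, families from which the homeodomain transcription factor Nkx2.2 is known to draw partners: the Groucho genes Tle1, Tle2, Tle3, Tle4 and Tle6, the histone deacetylase genes Hdac1 and Hdac2, and the DNA methyltransferase genes Dnmt1, Dnmt3a and Dnmt3b. They were chosen by name, and all 10 were found in each of the 3 count tables, of 55536 rows for embryonic pancreas, 26487 for islets and 39017 for progenitors. All 10 passed the filter on low counts in every comparison.

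The study examined a mutation of the SD domain of Nkx2.2, a conserved stretch next to the homeodomain in proteins of the NK2 family. RNA was sequenced from whole pancreas at E15.5, as 3 wildtype control libraries and 4 libraries of mice carrying the mutation throughout the body (SDmut). Islet libraries were 2 of wildtype controls at 8 weeks and 3 of mice of the same age with the mutation restricted to beta cells (betaSDmut), and 2 of controls and 2 of betaKO mice at 4 weeks. The label betaKO was read as loss of Nkx2.2 in beta cells, and betaKO below stands for the libraries so labelled. The Cre driver of the islet groups is not given in the sources used here. Motor neuron progenitors were made from mouse embryonic stem cells and taken at day 4 of differentiation. They carried a FLAG-tagged transgene that doxycycline switches on, encoding either wildtype Nkx2.2 (the iNkx2.2 line) or the SD mutant (the iSDmut line). There were 3 induced libraries of iNkx2.2 and 2 of iSDmut, which had received the drug at 1 µg/ml for roughly 16 h, and 3 libraries of the iNkx2.2 line without it served as controls (pMN). The labels name a single line for each transgene and do not give the number of clones, and the iSDmut line had no uninduced library. Binding of Nkx2.2 was mapped by chromatin immunoprecipitation and sequencing (ChIP-seq) in 2 replicates of MIN6 cells, a mouse beta-cell line. The labels do not say which libraries come from separate animals or cultures, so p-values measure the spread between these libraries.

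Groucho proteins bind no DNA themselves. Transcription factors with a short Groucho-binding motif, such as the TN motif of Nkx2.2, bring them to chromatin, where they hold target genes off together with histone deacetylases. Hdac1 and Hdac2 are the catalytic subunits of the Sin3, NuRD and CoREST complexes, which remove acetyl groups from histone tails. Dnmt1 copies methylation onto newly replicated DNA, while Dnmt3a and Dnmt3b place new methyl groups. In beta cells Nkx2.2 is known to act with Groucho, Hdac1 and Dnmt3a in repressing genes of other endocrine cell types, and in the ventral spinal cord it is known to repress motor neuron genes through Groucho.

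Levels of a gene are given in CPM, its counts in a library scaled to 1000000. Where genes are set beside each other, levels are in FPKM as deposited by the authors, which are also divided by transcript length. Total counts ran from 38447596 to 41840638 per embryonic library, from 12398041 to 32385406 per islet library and from 17757991 to 46840701 per progenitor library. Nkx2-2 itself was measured at 77.2 and 104 CPM in the 4-week controls and at 65.5 and 94.1 CPM in the libraries labelled betaKO, so its transcript did not mark the knockout (log2 fold change -0.18, SE 0.237, adjusted p 0.779 by edgeR), and directions for the libraries labelled betaKO rest on the label. In E15.5 pancreas the log2 fold change of Nkx2-2 was -0.10 (SE 0.224) and in 8-week islets -0.10 (SE 0.128). In progenitors it was at 5.40 to 11.6 CPM in pMN, 343 to 378 CPM in iNkx2.2 and 245 and 248 CPM in iSDmut. Summed beta-cell markers stood at 167000 to 237000 CPM in the islet libraries and were lower in the mutants of each age. In E15.5 pancreas control 3 and SDmut 2 had summed skeletal muscle markers of 4750 and 5490 CPM, against at most 63.7 CPM in the other 5.

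In islets the 2 most altered members were Groucho genes that moved in opposite directions. Tle3, which had the highest level of the Groucho members in control islets, was lower in betaSDmut and in betaKO islets. Tle4, a close relative that was low in control islets, was higher in both. The histone deacetylases and DNA methyltransferases were not called in either comparison. Of the 10 genes, 2 were called in 8-week islets, where 7.94% of all 15413 genes tested were called, and 2 in 4-week islets, where 1.56% of 14942 genes were called (edgeR's quasi-likelihood test, Benjamini-Hochberg adjusted p under 0.05 over all genes).

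Tle3 (chromosome 9, 61372366 to 61418497, plus strand, GRCm38) was at 107 and 101 CPM in the 8-week controls and at 43.5, 35.8 and 32.5 CPM in the 3 betaSDmut libraries. In 4-week islets it was at 93.0 and 95.5 CPM in controls and at 53.4 and 53.2 CPM in betaKO. Every mutant library lay below every control of its age. Tle3 fell by 1.49 on the log2 scale in betaSDmut (SE 0.128, adjusted p 0.00456 by edgeR) and by 0.82 in betaKO (SE 0.0824, adjusted p 0.0271 by edgeR). The call in betaSDmut was lost when 8-week control 1 or control 2 was left out (adjusted p 0.0651 and 0.0719 by edgeR), with log2 fold changes of -1.44 and -1.53. The range of the adjusted p over all 10 alternatives ran from 7.16e-19 to 0.0719.

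Tle4 (chromosome 19, 14448150 to 14598051, minus strand) was at 11.6 and 12.7 CPM in the 8-week controls and at 39.3, 42.8 and 37.6 CPM in betaSDmut. In 4-week islets it was at 8.91 and 9.79 CPM in controls and at 22.7 and 30.3 CPM in betaKO. Again the groups did not overlap at either age, here with the mutants above. Tle4 rose by a log2 fold change of 1.71 in betaSDmut (SE 0.0972, adjusted p 0.00129 by edgeR) and of 1.5 in betaKO (SE 0.18, adjusted p 0.0344 by edgeR). In betaSDmut the call held in all 10 alternatives (adjusted p at most 0.0463). In 4-week islets the calls of both Tle3 and Tle4 were lost without control 1, control 2 or betaKO 2, where adjusted p-values by edgeR were 0.0585 to 0.189.

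**Figure D1:**
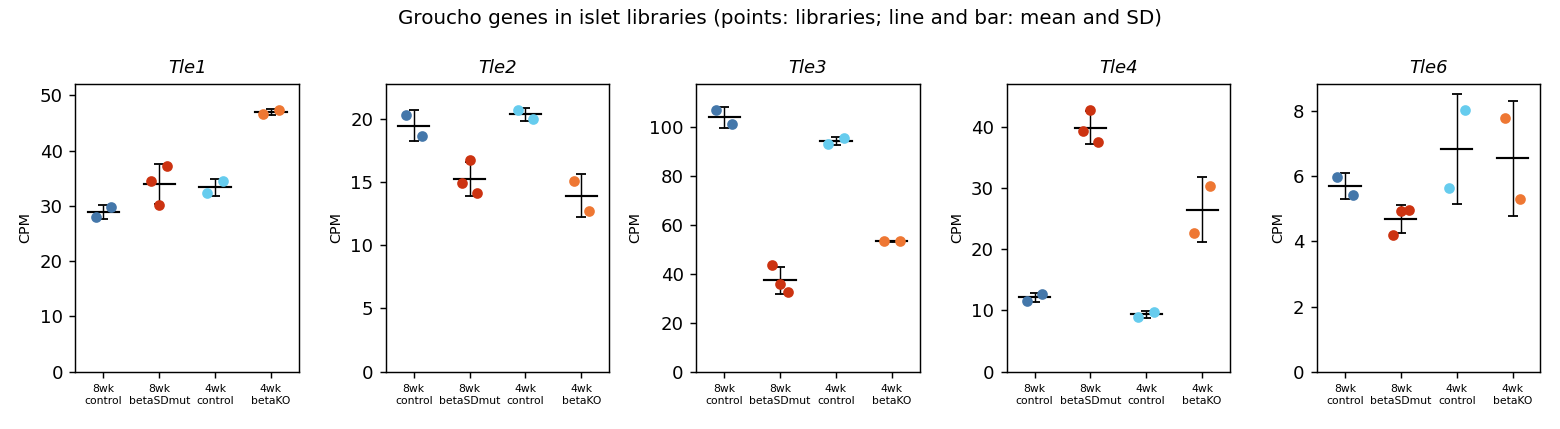
CPM of the 5 Groucho genes in each islet library (y axis, from 0; points are libraries, line and bar the mean and SD of a group; x axis, groups). Tle3 is lower and Tle4 higher in the mutant group of each age, with no overlap, while Tle6 groups overlap at 4 weeks.

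The other Groucho genes did not pass the threshold in islets. Tle1 (chromosome 4, 72117142 to 72200919, minus strand) was at 28 and 29.8 CPM in 8-week controls and at 34.6, 30.1 and 37.3 CPM in betaSDmut, a log2 fold change of 0.23 (SE 0.109, adjusted p 0.248 by edgeR). In 4-week islets it was at 32.3 and 34.5 CPM in controls and at 46.6 and 47.4 CPM in betaKO, a log2 fold change of 0.49 (SE 0.0972, adjusted p 0.0896 by edgeR), which DESeq2 called (adjusted p 0.025). Tle1 was above its controls in every mutant library of both ages. Tle2 (chromosome 10, 81574561 to 81590845, plus strand) had 20.3 and 18.6 CPM in 8-week controls against 14.9, 16.7 and 14.1 CPM in betaSDmut, and 20.7 and 20 CPM in 4-week controls against 15.1 and 12.7 CPM in betaKO. Its log2 fold changes were -0.35 (SE 0.105, adjusted p 0.099 by edgeR) and -0.55 (SE 0.141, adjusted p 0.159 by edgeR). Tle6, a shorter and divergent relative of the other Groucho genes (chromosome 10, 81590904 to 81601073, minus strand), was at 4.19 to 8.04 CPM in all islet libraries, with log2 fold changes of -0.28 (SE 0.163) and -0.05 (SE 0.293). Tle2 and Tle6 lie end to end, 59 bases apart on opposite strands, and the strand setting of the counting is not given, so reads that run past the end of either gene cannot be assigned with certainty.

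The authors' deposited tables mark the same directions for Tle3 and Tle4. In the authors' deposited table for 8-week islets Tle4 has a log2 fold change of 1.70 and Tle3 of -1.50, the only members marked as changed of the 10 it lists. In the authors' deposited table that joins both islet models, Tle4 has 1.93 in betaSDmut and 1.30 in betaKO, and Tle3 has -1.42 and -0.89. That table also marks Tle1 as higher in betaKO (0.60) and Tle2 as lower in betaSDmut (-0.39), which the age-matched edgeR fits did not call, while DESeq2 called Tle1. Between the models, betaKO against betaSDmut, the authors' deposited table marks Tle1 (0.47) and Tle3 (0.53) as higher and Tle4 (-0.62) as lower, in a direct contrast in which age differs too.

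Whether the 2 islet models differed was tested directly, as the betaSDmut effect at 8 weeks minus the betaKO effect at 4 weeks, in 1 model of 9 libraries. None of the 10 genes was called, where 1.21% of 15995 genes were (edgeR), and 1 had an unadjusted p under 0.05, beside 13.7% of all genes. The largest difference among the 10 was that of Tle3, with a log2 value of -0.66 (SE 0.174, unadjusted p 0.00503, adjusted p 0.137 by edgeR). DESeq2 called it (adjusted p 0.0246), as did the edgeR fit without betaSDmut 1 (log2 -0.79, adjusted p 0.0191). For Tle4 the difference was 0.21 (95% interval -0.25 to 0.68). Age and genotype differ together between these models and cannot be told apart.

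The opposite moves of Tle3 and Tle4 changed the make-up of the summed transcripts of the 5 Groucho members, which the deposited FPKM show on a scale per length. Aes, which encodes a short Groucho protein, is not among the members and not in this sum, and its level was higher. It was at 305 ± 21.5 FPKM in 8-week controls and 300 ± 21.8 FPKM in betaSDmut (mean ± SD). In 4-week islets Aes was at 373 ± 27.1 FPKM in controls and 290 ± 2.59 FPKM in betaKO, but edgeR did not call it there. The authors' deposited table that joins both islet models gives Aes a log2 fold change of -0.06 in betaKO and does not mark it. In 8-week controls Tle3 held 52.8% and 51.7% of the summed FPKM of the 5 Groucho genes and Tle4 6.34% and 7.54%. In betaSDmut Tle3 held 26.6%, 22.2% and 20.9% and Tle4 27.4%, 30.2% and 27.7%. The ratio of Tle4 to Tle3 was 0.120 and 0.146 in 8-week controls and 1.03, 1.36 and 1.33 in betaSDmut, so Tle4 stood above Tle3 in all 3 mutant libraries. In 4-week islets the ratio was 0.109 and 0.117 in controls and 0.486 and 0.658 in betaKO, where Tle3 was above Tle4. In CPM per kilobase of exon the ratio was 0.869 and 1.16 in betaKO, so the order of the 2 genes there depends on the length used, while it was 1.85 to 2.44 in betaSDmut and 0.196 to 0.257 in the controls of both ages. The summed FPKM of the 5 genes was 49.4 and 47.0 in 8-week controls and 39.2, 39.0 and 37.8 in betaSDmut, and 48.7 and 49.8 in 4-week controls and 37.2 and 41.2 in betaKO. In CPM per kilobase of exon the sum was 19.1 and 19.6 in 8-week controls and 17.5 to 18.3 in betaSDmut, but it overlapped at 4 weeks, with 18.4 and 19.7 in controls and 18.9 and 19.1 in betaKO. Islets hold several cell types, and fewer cells of a type cannot be told apart from less RNA per cell in these bulk libraries.

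**Figure D2:**
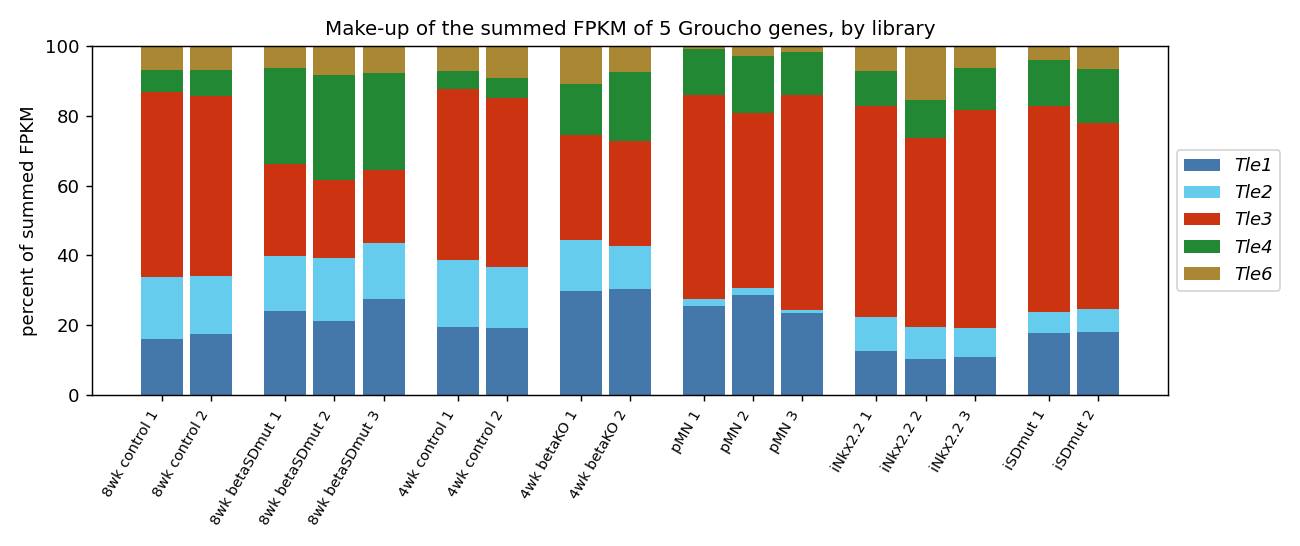
Percent of the summed FPKM of the 5 Groucho genes held by each gene (y axis, 0 to 100) in every islet and progenitor library (x axis). The Tle3 band is narrower and the Tle4 band wider in betaSDmut and betaKO than in the controls of the same age, and the Tle1 band is narrowest in iNkx2.2.

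The histone deacetylase genes were not called in islets. Hdac2 (chromosome 10, 36974544 to 37001889, plus strand), the member with the highest FPKM in islets, was at 77.2 and 70.8 CPM in 8-week controls and at 81.7, 80.7 and 75.6 CPM in betaSDmut, with overlapping groups. Its log2 fold change was 0.10 (95% interval -0.08 to 0.28), and in 4-week islets -0.13 (95% interval -0.35 to 0.09). Hdac1 (chromosome 4, 129516104 to 129542713, minus strand) was at 55.3 and 55.6 CPM in 8-week controls and at 49.6, 47.6 and 51.3 CPM in betaSDmut, and at 56.2 and 68.5 CPM in 4-week controls and 51.4 and 45.4 CPM in betaKO. Its mutant libraries were below the controls at both ages, with log2 fold changes of -0.16 (SE 0.0661, adjusted p 0.191 by edgeR) and -0.36 (SE 0.132, adjusted p 0.286 by edgeR), which did not pass the threshold.

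Among the DNA methyltransferases, Dnmt3a (chromosome 12, 3806007 to 3914443, plus strand) had the highest FPKM in islets. It was at 158 and 166 CPM in 8-week controls and 151, 163 and 150 CPM in betaSDmut, with overlapping groups and a log2 fold change of -0.07 (95% interval -0.25 to 0.12). In 4-week islets it was at 157 and 163 CPM in controls and 129 and 139 CPM in betaKO (log2 fold change -0.26, SE 0.0826, adjusted p 0.234 by edgeR). Dnmt3b (chromosome 2, 153649450 to 153687730, plus strand) was low, at 4.44 and 4.09 CPM in 8-week controls and 6.32, 5.95 and 5.91 CPM in betaSDmut. All 3 mutants were above both controls, but the log2 fold change of 0.51 (SE 0.147, adjusted p 0.0959 by edgeR) did not pass the threshold, and in 4-week islets it was 0.04 (95% interval -0.58 to 0.67). Dnmt1 (chromosome 9, 20907209 to 20959888, minus strand) overlapped between the groups at 8 weeks, with 30.8 to 47.6 CPM in the 5 libraries. Groups did not overlap for 7 of the 10 genes at 8 weeks and 8 of 10 at 4 weeks, where 45.9% and 47.5% of all genes tested did not overlap in these small groups.

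Other genes of the pathway were called at 8 weeks at about the share of all genes, 7.94%. Of 3 further corepressor genes of the Groucho and CtBP families tested at 8 weeks, Ctbp2, which encodes a corepressor of the CtBP family, rose. It was at 19.1 ± 0.488 CPM in the 2 controls and 29.9 ± 2.98 CPM in the 3 betaSDmut libraries (mean ± SD), a log2 change of 0.65 (SE 0.105, adjusted p 0.0221 by edgeR). Hdac6, a mostly cytoplasmic deacetylase, fell by 0.47 on the log2 scale (SE 0.0756, adjusted p 0.0221 by edgeR), the only one of 9 other deacetylase genes called. Of 19 subunits of the Sin3, NuRD and CoREST complexes 2 rose, Suds3 and Rbbp7, with log2 fold changes of 0.44 (SE 0.0876) and 0.31 (SE 0.0682). An unadjusted p under 0.05 was reached by 9 of the 19, and their median was 0.03, beside 0.01 over all genes tested. No gene of the NCoR/SMRT complex (5 tested), of the DNA methylation cofactors and readers (9) or of DNA demethylation (4) was called by edgeR, and 1, 4 and 1 of them had an unadjusted p under 0.05. In 4-week islets edgeR called 0 genes of these 6 lists, where an unadjusted p under 0.05 was reached by 1 corepressor gene, 2 deacetylase genes and 3 complex subunits.

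Ldha, which encodes lactate dehydrogenase A and is normally kept low in beta cells, rose in betaSDmut. It was at 9.34 and 11.6 CPM in controls and at 186 ± 28.1 CPM in betaSDmut (SD, n = 3), a log2 change of 4.15 (SE 0.19, adjusted p 0.000868 by edgeR). In betaKO Ldha was at 16.6 and 91.9 CPM against 10.9 and 20 CPM in controls, and it was not called there. Nkx6-1, a beta-cell factor that itself binds Groucho, fell by 0.91 on the log2 scale in betaSDmut (SE 0.133, adjusted p 0.0174 by edgeR). Marker sums of several cell types differed between the groups in which Tle3 and Tle4 were called. Summed beta-cell markers were 197000 to 211000 CPM in betaSDmut against 231000 and 237000 CPM in controls, and 167000 and 179000 CPM in betaKO against 210000 and 214000 CPM, so they were lower in the mutants without overlap at both ages. Sums of other islet endocrine markers overlapped at 8 weeks (29100 to 38800 CPM in betaSDmut, 37400 and 44500 CPM in controls). At 4 weeks they were 62200 and 77100 CPM in betaKO against 29800 and 35500 CPM in controls, with 2 of 5 genes called higher, Gcg and Ppy, the hormone genes of alpha and PP cells. Summed acinar markers overlapped at 8 weeks (451, 1070 and 5050 CPM in betaSDmut, 3780 and 6170 CPM in controls) and were 6730 and 21200 CPM in betaKO against 3020 and 5520 CPM in controls. Summed mesenchyme markers were 58.5 to 116 CPM in betaSDmut against 140 and 188 CPM, and 260 and 320 CPM in betaKO against 135 and 162 CPM. Their part in the results was not tested.

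Nkx2.2 was bound at several of these genes in MIN6 cells. The authors' final set holds 6473 sites of 10749 events, each with a log2 CPM value in 2 replicates, and an event is counted in a window of 500 bp. Of the 10 members, 5 had a final site within 20 kb of the gene (Tle1, Tle3, Tle4, Dnmt3a and Dnmt3b), beside 24.4% of 16113 protein-coding genes with reads in islets. The same 5 members had one inside the gene, beside 12.1% of those genes, but long genes hold more sites and the members were not matched for length. Hdac1, Tle2 and Tle6 had none within 100 kb. Among sites within 20 kb the highest value was in an intron of Dnmt3a, at position 3887746 of chromosome 12 (mean log2 CPM 8.02, rank 682 of the final set), and a site 47988 bases upstream of Dnmt3b was higher still (8.56, rank 348). Tle3 had a site 3598 bases upstream of its start (mean log2 CPM 7.18) and sites in introns at 5594 and 16946 bases from it (7.62 and 6.51). Tle4 had 2 sites in an intron, 85475 and 95683 bases from its start (6.57 and 7.01), the second of which the authors joined to the gene. To other members the authors joined sites further away. These lay upstream of Tle3 by 112833 bases (7.66), of Dnmt3a by 34094 bases (7.43) and of Hdac2 by 224303 bases (7.22). For Tle1 the joined site lay 351930 bases past the end of the gene (7.19). Tle1 had 2 intronic sites (6.28 and 6.48) and Dnmt3b had 2 (7.13 and 6.53). The final set spans 5.97 to 10.77 with a median of 6.82, so sites at these genes lay on both sides of the median. Input reads are not used here, so no enrichment over input is given.

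The windows of 101 bases around the sites of Tle3, Tle4 and Dnmt3a are shown because these are the genes with changed transcript in islets and the member with the highest site within 20 kb (GRCm38.p6, plus strand, from RefSeq). Capitals mark AAGTG, the core of NK2 binding motifs, and the words TTGAGTG and GTTGC, each on either strand. The last 2 words were chosen after counting words in all final sites. Of 10 windows within 20 kb of a member, 6 are shown.
Tle3 upstream, chr9:61368718-61368818: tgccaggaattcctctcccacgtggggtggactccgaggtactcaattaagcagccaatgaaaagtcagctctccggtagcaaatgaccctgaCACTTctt
Tle3 intron, chr9:61377910-61378010: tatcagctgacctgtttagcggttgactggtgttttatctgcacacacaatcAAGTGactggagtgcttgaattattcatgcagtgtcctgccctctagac
Tle3 intron, chr9:61389262-61389362: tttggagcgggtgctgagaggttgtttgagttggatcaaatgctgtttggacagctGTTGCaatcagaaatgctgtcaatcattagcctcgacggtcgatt
Tle4 intron, chr19:14502318-14502418: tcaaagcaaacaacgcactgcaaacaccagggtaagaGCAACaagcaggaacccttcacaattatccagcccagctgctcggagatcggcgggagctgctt
Tle4 intron, chr19:14512526-14512626: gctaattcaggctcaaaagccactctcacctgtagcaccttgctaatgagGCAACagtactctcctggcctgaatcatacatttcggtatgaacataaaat
Dnmt3a intron, chr12:3887696-3887796: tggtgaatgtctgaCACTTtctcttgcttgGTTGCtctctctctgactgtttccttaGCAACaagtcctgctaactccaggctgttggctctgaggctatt

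AAGTG was in both of the higher Tle3 windows and in that of Dnmt3a, and in neither Tle4 window. Over all final sites it was in 22.7% of windows of this length, beside 21.8% of windows 1000 bases further along the chromosome, so the core alone was about as frequent away from the sites. The longer TNAAGTG was in 7.79% and 5.62%. GTTGC was in both Tle4 windows, in 1 of the 3 Tle3 windows and in that of Dnmt3a. It was in 39.8% of the windows at all final sites and in 11% of those 1000 bases away. TTGAGTG was in none of the 6 windows shown. It was in 7.37% of all final sites and in 1.27% of the shifted windows. A match is a string of letters in a window and does not show that a factor binds it.

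In progenitors Tle2 and Tle6 rose and Tle1 fell after induction of wildtype Nkx2.2. Dnmt1 fell and Dnmt3a rose. Tle3 and Tle4, the pair that moved in islets, were not called in this fit, which leaves replicate numbers out. With the replicate number as a block, as described below, Tle3 was called as higher (log2 fold change 0.21, adjusted p 0.049 by edgeR). In the induced iSDmut libraries Tle2 and Tle6 were higher and Dnmt1 was lower than in pMN. Tle1 was also below pMN in both iSDmut libraries (log2 fold change -0.47), a change that DESeq2 called and edgeR did not. Of the 10 genes, 5 were called in iNkx2.2 against pMN, where 9.49% of 15653 genes were called, and 3 in iSDmut against pMN, where 3.54% were (edgeR). Both comparisons share the 3 pMN libraries. In iNkx2.2 against pMN the drug and the transgene differ together. In iSDmut against pMN the cell line differs as well, so these cannot be told apart. Rises and falls given for iSDmut are differences from pMN. Groups did not overlap for 5 of the 10 genes in the first and 6 of the 10 in the second, beside 31.4% and 36.5% of all genes.

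Tle2 was at 2.73, 1.58 and 2.46 CPM in pMN, at 22.5, 15.4 and 17.3 CPM in iNkx2.2 and at 12.4 and 11 CPM in iSDmut. The 3 groups did not overlap, with iSDmut between the others. Tle2 rose by a log2 fold change of 3.02 in iNkx2.2 (SE 0.241, adjusted p 0.000201 by edgeR) and of 2.37 in iSDmut (SE 0.255, adjusted p 0.00192 by edgeR), and both calls held in all alternatives. Tle6 was at 1.06, 1.88 and 1.14 CPM in pMN, at 9.29, 15.4 and 9.85 CPM in iNkx2.2 and at 3.86 and 6.07 CPM in iSDmut, again with iSDmut between groups that did not overlap. Its log2 fold change was 3.08 in iNkx2.2 (SE 0.331, adjusted p 0.000906 by edgeR) and 1.88 in iSDmut (SE 0.355, adjusted p 0.0237 by edgeR). In iSDmut the call of Tle6 was lost without pMN 1, pMN 3 or iSDmut 2 (adjusted p 0.0695 to 0.105 by edgeR), and without the iNkx2.2 libraries in the fit (0.0512). The 2 genes lie end to end, as described for islets, so their rises may not be independent measurements.

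Tle1 was at 78.4, 77.0 and 84.9 CPM in pMN, at 44.1, 33.5 and 41.1 CPM in iNkx2.2 and at 61.8 and 54.0 CPM in iSDmut. It fell by 1.02 on the log2 scale in iNkx2.2 (SE 0.121, adjusted p 0.00155 by edgeR), a call that held in all 13 alternatives. In iSDmut the log2 fold change of Tle1 was -0.47 (SE 0.136, adjusted p 0.094 by edgeR), and DESeq2 called it (adjusted p 0.0267). The authors' deposited table for progenitors lists 3 members, Tle1, Tle2 and Tle6. It marks Tle1 as lower in iNkx2.2 (-0.97) and in iSDmut (-0.46). Tle2 (3.11 and 2.46) and Tle6 (3.03 and 1.91) are marked as higher in both, and no member is marked between the transgenes. Among the Groucho members, Tle3 had the highest mean FPKM in every progenitor group. Mean FPKM of Aes, which is not among the members, was 82.0 in iNkx2.2 and 58.8 in iSDmut, above Tle3 (54.6 and 47.1). In pMN Aes was below Tle3 (32.8 against 44.9 FPKM). Tle3 was at 175 to 261 CPM in pMN, 207 to 296 CPM in iNkx2.2 and 210 to 224 CPM in iSDmut. Its groups overlapped, with log2 fold changes of 0.21 (SE 0.165) and -0.04 (SE 0.185). Tle4 was at 63.6 to 65.5 CPM in pMN, 52.8 to 64.8 CPM in iNkx2.2 and 68.3 to 70.2 CPM in iSDmut. Its log2 fold changes were -0.18 (95% interval -0.41 to 0.05) and 0.10 (95% interval -0.15 to 0.36).

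**Figure D3:**
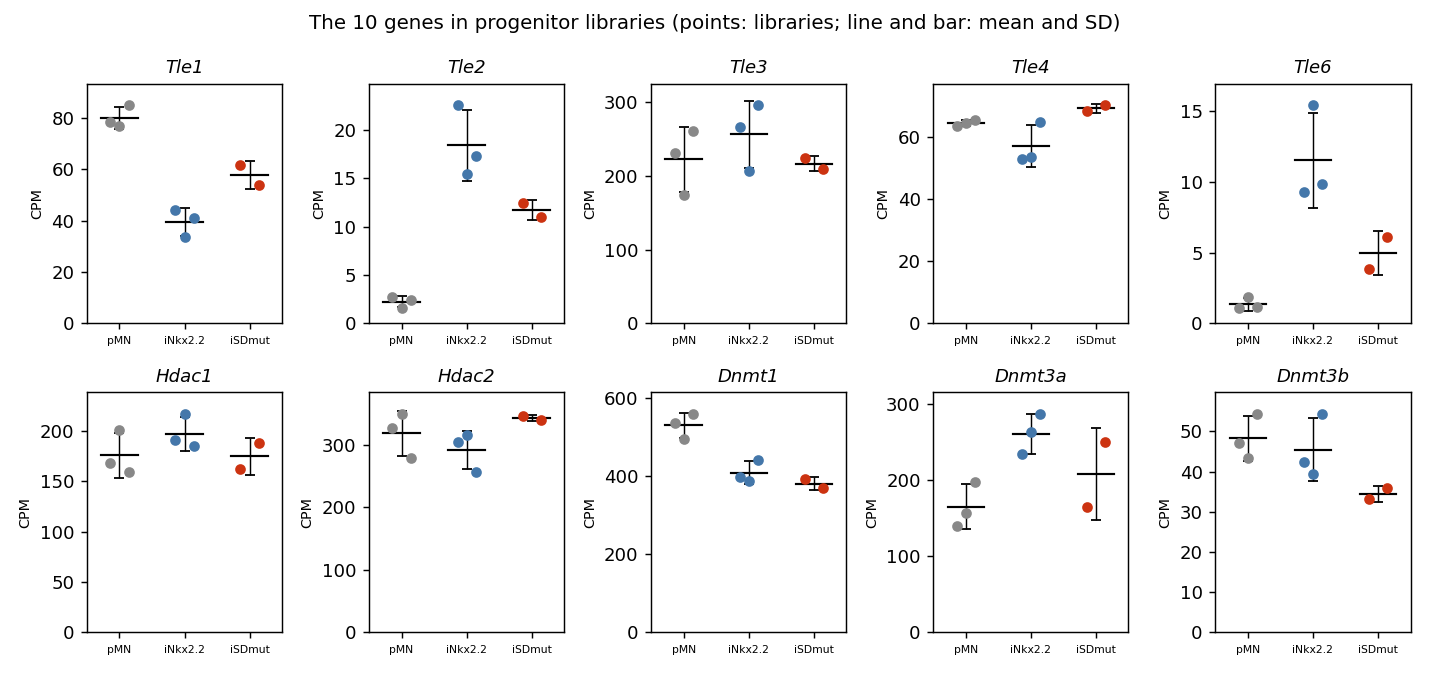
CPM of the 10 genes in each progenitor library (y axes, from 0; points are libraries, line and bar the mean and SD of a group; x axes, groups). Tle2 and Tle6 are lowest in pMN and highest in iNkx2.2, Tle1 shows the opposite order, and Dnmt1 is highest in pMN.

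The deacetylase genes were not called in the fit without replicate numbers. With the replicate number as a block, Hdac1 was called in iNkx2.2 (adjusted p 0.0378 by edgeR). Hdac1 was at 159 to 201 CPM in pMN, 185 to 217 CPM in iNkx2.2 and 162 to 188 CPM in iSDmut, and Hdac2 at 279 to 349 CPM, 257 to 315 CPM and 340 to 346 CPM. Their groups overlapped between pMN and iNkx2.2. Dnmt1 was at 536, 495 and 558 CPM in pMN, at 398, 386 and 441 CPM in iNkx2.2 and at 392 and 368 CPM in iSDmut, so every induced library was below every pMN library. It fell by 0.38 on the log2 scale in iNkx2.2 (SE 0.096, adjusted p 0.0397 by edgeR) and by 0.48 in iSDmut (SE 0.109, adjusted p 0.0459 by edgeR), but the first call was lost in 8 of 13 alternatives and the second in 7 of 11 (adjusted p up to 0.153 and 0.174 by edgeR). These included the fits without pMN 1, without pMN 3 or without any iNkx2.2 library in turn for the first, and without any of the 5 libraries in turn for the second. Dnmt3a was at 140, 157 and 198 CPM in pMN, at 234, 263 and 287 CPM in iNkx2.2 and at 165 and 251 CPM in iSDmut. Its log2 fold change was 0.66 in iNkx2.2 (SE 0.176, adjusted p 0.0443 by edgeR), lost in 5 of 13 alternatives, without pMN 1, pMN 2 or any iNkx2.2 library in turn, and 0.33 in iSDmut (SE 0.194, adjusted p 0.376 by edgeR). Dnmt3b was at 43.5 to 54.3 CPM in pMN, 39.5 to 54.3 CPM in iNkx2.2 and 33.1 and 35.9 CPM in iSDmut. Its log2 fold change in iSDmut, -0.48 (SE 0.16), did not pass the threshold (adjusted p 0.13 by edgeR).

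Replicate numbers paired pMN and iNkx2.2 libraries by their deviations from the group means. With that number as a replicate block, 7 members were called in iNkx2.2 against pMN, the 5 above and also Tle3 (log2 fold change 0.21, adjusted p 0.0490 by edgeR) and Hdac1 (0.17, adjusted p 0.0378 by edgeR), and the count over all genes was 4629 rather than 1486.

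The direct comparison of the 2 transgenes called none of the 10 genes, where 0.281% of 15653 genes were called (edgeR). An unadjusted p under 0.05 was reached by 5 of the 10, beside 12.5% of all genes. Tle1 had a log2 difference of 0.55 in iSDmut against iNkx2.2 (SE 0.134, adjusted p 0.135 by edgeR), Tle6 of -1.20 (SE 0.338, adjusted p 0.197 by edgeR) and Tle2 of -0.65 (SE 0.242, adjusted p 0.306 by edgeR). DESeq2 called Tle1 (adjusted p 0.0141) and Tle6 (adjusted p 0.0267). All 3 genes were nearer to pMN in both iSDmut libraries than in any iNkx2.2 library, and Nkx2-2 was also lower in iSDmut, by 0.53 on the log2 scale (SE 0.222, adjusted p 0.37 by edgeR). Lane numbers read from the titles differed as well. They were 2, 2 and 4 for iNkx2.2 and also for pMN, but 2 and 3 for iSDmut. Cell line and transgene differed together and cannot be told apart. The part of the transgene's level or of the lane in these differences was not tested. The groups did not overlap for 6 of the 10 genes, beside 31.9% of all genes.

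The genes whose pattern over the 8 progenitor libraries was most like that of each called member were taken as a description. For Tle1 they were Olig2, the factor that marks motor neuron progenitors, Gm26507 and Neurog2, a proneural factor (Pearson r of log2 CPM 0.99, 0.987 and 0.985). For Tle2 they were Mfng, Shox2 and Nkx2-2 (0.997, 0.995 and 0.99). For Tle6 they were Dmrta1, Dnajc14 and Zfp324 (0.986 to 0.982), for Dnmt1 Chsy1, Lonp1 and Srp68 (0.997 to 0.995) and for Dnmt3a Irf1, Mfap2 and Prkcz (0.988 to 0.982). Libraries of a group share their treatment, so such values are high for many genes. Olig2 itself was at 200 to 284 CPM in pMN, 2.82 to 10.5 CPM in iNkx2.2 and 25.6 and 87.1 CPM in iSDmut.

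The counts of other pathway genes in progenitors are to be read beside the share of all genes called, 9.49% in iNkx2.2 and 3.54% in iSDmut. Aes, which encodes a short Groucho protein that lacks the C-terminal repeats, was higher in both induced groups than in pMN. It was at 65.3 ± 4.50 CPM in pMN (SD, n = 3), 153 ± 0.348 in iNkx2.2 (SD, n = 3) and 114 ± 19.0 in iSDmut (SD, n = 2). Its log2 fold changes were 1.23 (SE 0.106, adjusted p 0.000289 by edgeR) and 0.81 (SE 0.116, adjusted p 0.00788 by edgeR). Uhrf1, which brings Dnmt1 to newly replicated DNA, fell by 0.51 in iNkx2.2 (SE 0.0885, adjusted p 0.00944 by edgeR) and by 0.69 in iSDmut (SE 0.101, adjusted p 0.00793 by edgeR) on the log2 scale. Hells, a chromatin remodeller needed for DNA methylation, fell by 0.65 in iNkx2.2. Of 19 subunits of Hdac1 and Hdac2 complexes, 3 fell in iNkx2.2 (Sap18, Sap30 and Rbbp7, by 0.47, 0.46 and 0.38) and 0 were called in iSDmut, where 5 had an unadjusted p under 0.05. Hdac5 rose by 0.48 in iNkx2.2, the only one of 9 other deacetylase genes called. Of 12 genes of cycling cells 5 fell in each comparison, with medians of -0.31 and -0.46 beside -0.01 over all genes. Their summed level was 4980 to 6460 CPM in pMN, 3980 to 4830 CPM in iNkx2.2 and 4310 to 4710 CPM in iSDmut, and its part in the lower Dnmt1 and Uhrf1 was not tested.

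In E15.5 pancreas none of the 10 genes was called, where 0.00534% of 18723 genes were (edgeR). An unadjusted p under 0.05 was reached by 2 of them, beside 2.54% of all genes, and DESeq2 also called 0 of the 10. Tle1 was at 89.8, 85.6 and 83.2 CPM in controls and at 75.2, 72.5, 78.8 and 71.9 CPM in SDmut. Dnmt3a was at 276, 323 and 318 CPM in controls and at 274, 272, 241 and 250 CPM in SDmut. For both genes every mutant was below every control, which held for 3.58% of all genes in either direction, and the other 8 overlapped. The log2 fold changes were -0.21 for Tle1 (SE 0.0705, unadjusted p 0.0194) and -0.24 for Dnmt3a (SE 0.0951, unadjusted p 0.0382), with an edgeR adjusted p of 1 for each. Log2 fold changes of the deacetylases were 0.02 for Hdac1 (95% interval -0.16 to 0.20) and -0.01 for Hdac2 (95% interval -0.20 to 0.17). EdgeR called 0 genes of the other pathway lists, and at most 2 in a list had an unadjusted p under 0.05. Summed beta-cell markers were 146 to 229 CPM in SDmut against 404 to 982 CPM in controls, without overlap. EdgeR called 0 of these 6 marker genes. In every islet library the same markers summed to at least 167000 CPM. A change confined to beta cells could therefore go unseen in these whole-pancreas libraries.

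**Figure D4:**
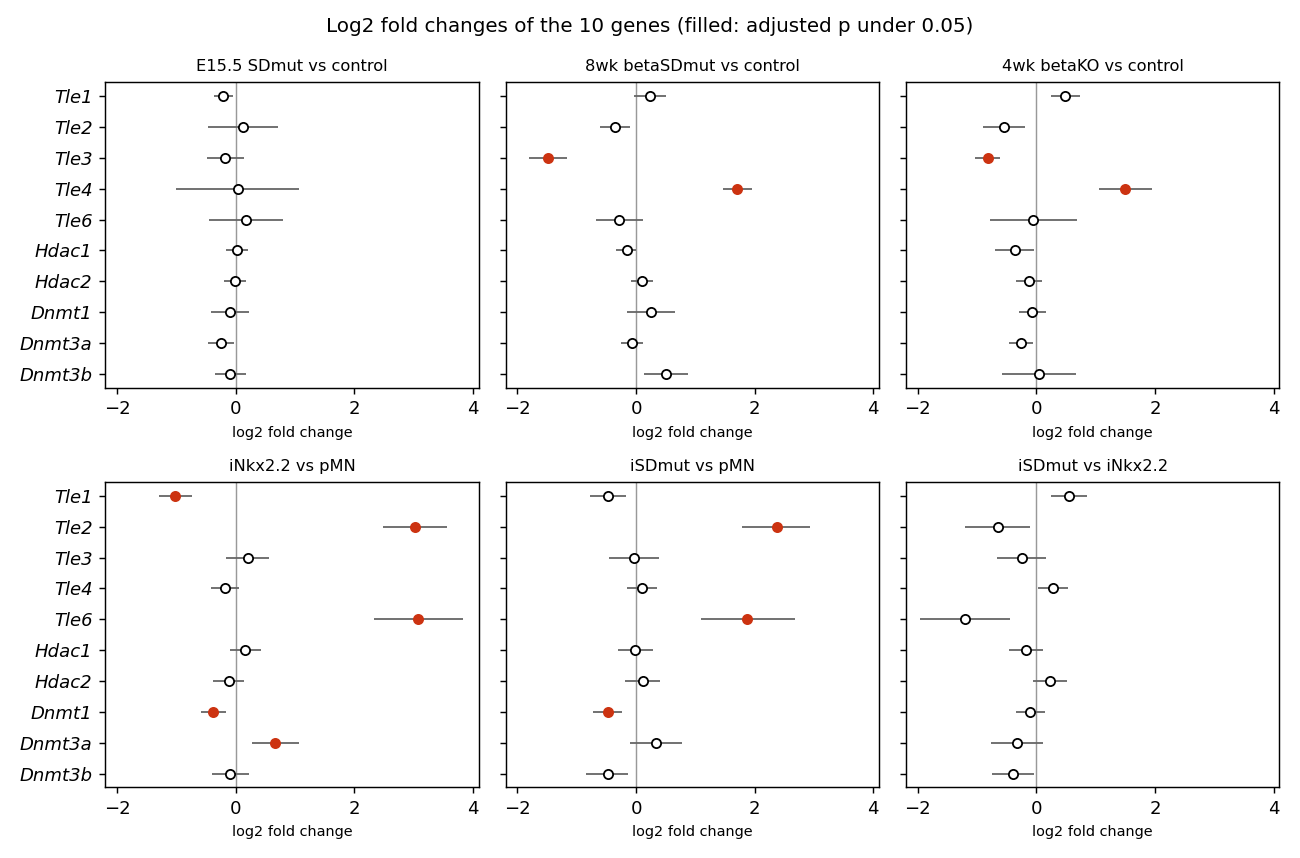
Log2 fold change of each of the 10 genes (x axis; points with 95% intervals) in 6 comparisons, filled where the edgeR adjusted p over all genes was under 0.05. Tle3 and Tle4 are filled in both islet comparisons, Tle2, Tle6 and Dnmt1 in both comparisons with pMN, and no gene at E15.5 or between the transgenes.

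Tle4 and Tle6 varied more between embryonic libraries than between the groups. Tle4 was at 8.96, 20.6 and 24.5 CPM in controls and at 21.7, 29.0, 12.3 and 10.9 CPM in SDmut. Over the 7 libraries it was higher where summed mesenchyme markers were higher (4010 to 11100 CPM), with Pearson's r of 0.94 and Spearman's rho of 0.86 (exact permutation p 0.00694 and 0.0238, two-sided), and r was 0.87 without the 2 libraries farthest from the median. Tle6 was at 97.5, 62.9 and 51.9 CPM in controls and at 72.9, 55.6, 88.8 and 101 CPM in SDmut. It was higher where summed acinar markers were higher (12500 to 38600 CPM), with r of 0.89 and rho of 0.86 (exact permutation p 0.0157 and 0.0238), and r was 0.96 without the 2 farthest. Tle3 went the other way with the acinar markers, with r of -0.89 and rho of -0.79 (exact permutation p 0.00437 and 0.048), and r was -0.87 without the 2 farthest. Among 30 such relations of the 10 genes with acinar, mesenchyme and proliferation sums, none passed after Benjamini-Hochberg adjustment. The adjusted p was 0.0694 for r and 0.205 for rho of Tle4, 0.0925 and 0.205 for Tle6 and 0.0694 and 0.24 for Tle3. These relations were computed after the levels had been seen. Control 3 and SDmut 2, the libraries with high skeletal muscle markers, had the lowest acinar sums (12500 and 13600 CPM). They also had the lowest Tle6 and the highest Tle4. Leaving out the 2 libraries farthest from the acinar median removed control 3 but kept SDmut 2. The part of the muscle-rich libraries in these relations was not tested.

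**Figure D5:**
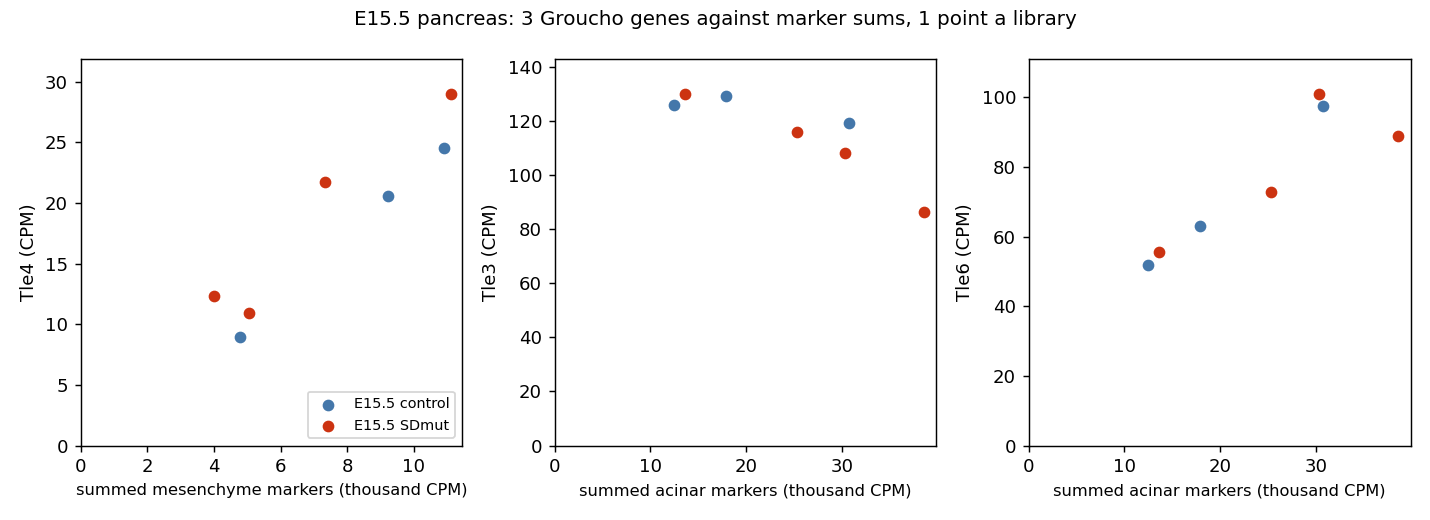
CPM of Tle4, Tle3 and Tle6 (y axes, from 0) against the summed CPM of mesenchyme or acinar markers (x axes, in units of 1000 CPM), 1 point for each of 7 E15.5 libraries, coloured by group. Control and SDmut libraries mix along each relation.

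Set beside each other per length, the 10 genes had a different order in each tissue. In 8-week control islets Hdac2 was first with 51.0 ± 3.33 FPKM (SD, n = 2), then Tle3 with 25.2 ± 1.27 and Dnmt3a with 22.1 ± 1.39, and Dnmt3b was last with 1.23 ± 0.183. Dnmt1, Tle2 and Tle1 (8.44, 8.30 and 8.05 FPKM) did not differ beyond their spread, nor did Tle4 and Tle6 (3.33 and 3.3 FPKM). In pMN progenitors Hdac2 was first with 111 ± 9.09 FPKM (SD, n = 3). Hdac1, Dnmt1 and Tle3 followed with overlapping ranges (57.3, 50.1 and 44.9 FPKM), and Tle2 was last with 1.22 ± 0.327 FPKM, next to Tle6 with 1.44 ± 0.571. In E15.5 controls, as CPM per kilobase of exon, Hdac1, Dnmt1 and Hdac2 led with 39.4 ± 1.60, 36.6 ± 3.26 and 36.5 ± 1.37 (SD, n = 3), and Tle4 was last with 3.16 ± 1.42. Tle6 was 4th there with 22.9 ± 7.71, above the other Groucho members. Such orders depend on the length assumed: Hdac2 stood at 3.87 and 3.90 times Hdac1 in the 8-week controls in FPKM, but at 1.07 and 0.981 times in CPM per kilobase of exon. The ratio of Dnmt3a to Dnmt3b was 15.6 to 21.0 in FPKM in control islets of both ages and 2.24 to 2.77 in pMN, but 10.2 to 12.5 and 0.914 to 1.12 in CPM per kilobase of exon. The tables were normalized separately, and these ratios were not tested.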

How the data were processed

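RNA was sequenced from 7 embryonic pancreas, 9 islet and 8 progenitor libraries. The authors deposited raw read counts per gene and, for islets and progenitors, FPKM per gene, per the labels and the deposited readme. STAR, Cufflinks, edgeR 3.20.9, limma 3.34.9, DESeq2, bedtools 2.17.0 and the build mm10 are named, without roles, in the submitters' processing notes. The counting tool, annotation and strand setting are not given in the sources used here. Tables of the authors' own comparisons hold log2 fold changes and p-values, and the ChIP-seq files hold read counts in 500 bp at binding events and log2 CPM at final sites, all as deposited by the authors.

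The 10 genes and all gene lists were chosen with earlier results of these data known. Counts were scaled by TMM, filtered by group with filterByExpr and tested across all genes with edgeR 4.0.16 (robust quasi-likelihood, Benjamini-Hochberg adjusted p under 0.05). Standard errors were derived from the F statistic and the size of the change, and intervals are 95%. Islets were fitted by age, and progenitors as 3 groups in 1 model. DESeq2 1.42.0, other size factors and filters, blocks and leaving out each library were alternatives. The fits were tested on simulated data. Genes named outside the 10 are those of the lists that passed the threshold, or their most alike genes by Pearson's r of log2 CPM. Correlations used exact permutation tests in scipy 1.17.1.

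Replicate numbers in the labels paired pMN with iNkx2.2, since deviations of same-numbered libraries correlated at 0.535, 0.513 and 0.568. Other groups did not meet this criterion. No 2 libraries were identical. Gene positions are those of the GRCm38 annotation, and sequences come from RefSeq GRCm38.p6.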

Additional observations from a re-analysis of the deposited data

Results flagged for a closer look

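Tle1 lay on opposite sides of the controls in the SD mutants of 2 tissues. In E15.5 pancreas all 4 SDmut libraries were below all 3 controls, with a log2 fold change of -0.21. In 8-week islets all 3 betaSDmut libraries were above both controls, with a log2 fold change of 0.23. Neither change passed the threshold, and the difference between the tissues was not tested. No library lay far from the rest in the 10 groups of 4 embryonic SDmut values examined, a check by which chance marks about 1 in 20 groups.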

How the results depend on the processing

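Other size factors and the CPM filter changed no call among the 10 genes. Leaving out 1 library in turn gave 1 to 2 called members in 8-week islets (1 without control 1 or control 2), 0 to 2 in 4-week islets (0 without control 1, control 2 or betaKO 2), 0 to 1 for the difference of the islet effects, 3 to 4 in iNkx2.2 against pMN and 1 to 2 in iSDmut against pMN, where a lone library of a group is assumed to vary like the others. Over all genes these fits called 37 to 2765 in 8-week islets, 4 to 478 in 4-week islets, 0 to 343 for the difference, 412 to 1299 in iNkx2.2, 171 to 349 in iSDmut and 2 to 467 between the transgenes. DESeq2 called 25 genes at E15.5, 2041 and 770 in islets, 649 for the difference, 2271, 1388 and 476 in progenitors. It called 1 member for the difference of the islet effects and 2 between the transgenes. Without a count filter 372 genes were called in 4-week islets and 145 between the transgenes. A direct contrast of betaSDmut with betaKO, which adds age to genotype, called 3 members and 1753 genes, with -0.03 for Dnmt1. Fitting only the groups compared left 1 member in iSDmut against pMN (295 genes) and 13 genes between the transgenes.

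With the number as a replicate block, 6 members were called in iSDmut against pMN (2626 genes) and 2 between the transgenes (Tle1 and Tle6, 528 genes), though these numbers did not pair the libraries. The replicate block called 665 genes in 8-week islets, with the same count of 2 members there and in 4-week islets, and 102 genes for the difference.

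Signs that changed all belonged to members that were not called. At E15.5 the block on the title number gave -0.06 for Tle2 and 0.00 for Hdac2, and leaving out both muscle-rich libraries gave 0.01 for Hdac2. Leaving out 1 library gave, at E15.5, -0.04 to 0.29 for Tle2, -0.29 to 0.32 for Tle4, -0.01 to 0.47 for Tle6, -0.01 to 0.05 for Hdac1 and -0.05 to 0.02 for Hdac2. It gave, in 4-week islets, -0.36 to 0.22 for Tle6 and -0.09 to 0.18 for Dnmt3b, for the difference -0.50 to 0.09 for Tle6, and in iNkx2.2 -0.22 to 0.02 for Dnmt3b. In iSDmut against pMN it gave -0.18 to 0.10 for Tle3, -0.12 to 0.10 for Hdac1 and 0.00 to 0.61 for Dnmt3a, while Hdac1 was 0.02 with no count filter and 0.01 with only the groups compared, and Tle3 was 0.10 with the replicate block. The cause of these changes was not tested.

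With CPM per kilobase of exon in place of FPKM, the mean percent of the summed level of the 5 Groucho members held by Tle4 changed. It was 11, not 6.94, in 8-week controls, 38.7, not 28.4, in betaSDmut, 8.60, not 5.50, in 4-week controls and 24.5, not 17.2, in betaKO. It was 28.2, not 13.9, in pMN, 23.2, not 11, in iNkx2.2 and 29.7, not 14.4, in iSDmut. On both scales it was higher in the mutant islets. Groups of 2 to 4 libraries limit the precision of every comparison.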
